A study of Mus musculus with 6 samples.

Results

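The interferon-induced GTPases described here are 10 genes of the mouse guanylate-binding protein (GBP) and immunity-related GTPase (IRG) families, out of 24346 gene symbols measured by RNA sequencing. They are Gbp2, Gbp3, Gbp4, Gbp5, Gbp6, Gbp7, Gbp9, Irgm1, Irgm2 and Igtp, the last also called Irgm3. The genes were chosen by symbol after the difference between the 2 cell lines compared here was known, so their differences between the lines are given as a description, with no p-value. All 10 were found in the tables and all 10 had a mean level of at least 1 FPKM (sequenced fragments, scaled to transcript length and library size), the minimum for the fit across genes.

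The samples were 3 biological replicates of parental CT26.mMR1 cells and 3 of M8 cells. CT26 is a mouse colorectal tumor line from the BALB/c strain, and both lines carry retrovirally overexpressed mouse MR1, the molecule that presents metabolites to mucosal-associated invariant T (MAIT) cells. M8 is a single mutant clone, obtained with the mutagen N-ethyl-N-nitrosourea (ENU) and picked because it activated a MAIT cell reporter line more strongly and had more MR1 on its surface. The sample titles of both lines carry the tag cl9, which the labels do not explain. The effect of a mutation and that of picking a clone cannot be told apart, and the labels name no interferon treatment of either line. Nothing in the labels says that the replicates came from separate cultures, so spreads and p-values cover only the variation between these samples. Parental cells held Mr1 at 1081 ± 51.0 FPKM (SD, n = 3), and M8 at 1055 ± 34.7 FPKM. This gene did not pass the threshold of the fit described below (log2 fold change -0.03 ± 0.047, limma adjusted p = 0.615). Of 11 colon epithelium markers, only Krt18 and Krt20 had a mean above 1 FPKM, and Epcam, Cdh1, Krt19, Cdx2 and Lgr5 were listed at 0 in all 6 samples, so few markers of the labelled tissue were present. The summed level of these 11 genes was 39.7 to 56.4 FPKM in parental cells and 47.5 to 49.4 FPKM in M8. Of 12 macrophage and lymphocyte markers, only Cd14 and Cd68 were above 1 FPKM, and the summed level of the list was 19.3 to 21.3 FPKM in parental cells and 18.8 to 21.1 FPKM in M8. The markers Adgre1, Csf1r, Cd3e, Cd8a and Ncr1 were listed at 0 in every sample. Cd68 was lower in M8 (4.31 ± 0.563 against 1.76 ± 0.605 FPKM), Krt20 was lower (17.4 ± 2.36 against 11.9 ± 0.979 FPKM) and Cd14 was higher (16.1 ± 0.541 against 18.0 ± 0.668 FPKM), and the part of these genes' source in the values of the GTPases was not tested.

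GBPs and IRG proteins are GTPases that cells make in response to interferon, above all interferon-gamma. They assemble on the membranes of vacuoles that hold intracellular parasites and bacteria, damage those membranes and help to release microbial material to inflammasomes. The IRG family has regulators, Irgm1, Irgm2 and Igtp, which sit on the cell's own membranes and keep the effector IRG proteins inactive there. Transcription of both families is driven through gamma-activated sites (GAS) and through interferon-stimulated response elements (ISRE), which IRF1 and complexes with IRF9 bind.

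The members lie on chromosomes 3, 5 and 11 of the GRCm38 genome, the build to which the reads were mapped. Gbp5 (chr3:142496934-142522344), Gbp7 (chr3:142530336-142550151), Gbp3 (chr3:142560016-142573213) and Gbp2 (chr3:142620663-142638008) follow each other on the plus strand of chromosome 3. Gbp9 (chr5:105076464-105110357), Gbp4 (chr5:105115767-105139586) and Gbp6 (chr5:105270702-105295871) are on the minus strand of chromosome 5. Igtp (chr11:58199556-58207592) and Irgm2 (chr11:58214977-58222783) are neighbours on the plus strand of chromosome 11, and Irgm1 (chr11:48865245-48871420) is on its minus strand, far from both.

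Promoter sequence was available in the RefSeq table of GRCm38.p6 for 7 of the 10 members, and Gbp4, Gbp6 and Gbp9 were not in it. Each promoter window ran from 250 bases before to 50 bases after an annotated start, and Gbp3 had 2 such windows. The ISRE core was searched as GAAANNGAAA and the GAS core as TTCNNNGAA, on both strands, where N is any base. The stretches that hold the matches are shown because these elements define the interferon response of the families. Each runs 5′ to 3′ on the strand of the gene up to the base before the start, and begins 10 bases before the first match (5 in Gbp5). Capitals mark the matches, which read as the reverse complement where the ISRE core lies on the opposite strand, and overlapping matches run into each other.
Irgm1: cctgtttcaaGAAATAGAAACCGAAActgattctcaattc
Irgm2: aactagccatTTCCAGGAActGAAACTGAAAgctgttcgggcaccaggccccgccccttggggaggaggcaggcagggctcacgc
Igtp: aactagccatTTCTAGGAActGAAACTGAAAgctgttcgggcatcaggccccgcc
Gbp2: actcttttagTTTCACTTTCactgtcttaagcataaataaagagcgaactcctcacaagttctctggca
Gbp3: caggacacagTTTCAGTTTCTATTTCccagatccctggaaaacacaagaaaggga
Gbp5: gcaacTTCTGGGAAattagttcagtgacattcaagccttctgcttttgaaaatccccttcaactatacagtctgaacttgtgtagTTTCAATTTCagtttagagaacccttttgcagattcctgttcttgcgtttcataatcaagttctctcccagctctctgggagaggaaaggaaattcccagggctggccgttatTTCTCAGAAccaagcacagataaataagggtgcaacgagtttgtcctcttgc
Gbp7: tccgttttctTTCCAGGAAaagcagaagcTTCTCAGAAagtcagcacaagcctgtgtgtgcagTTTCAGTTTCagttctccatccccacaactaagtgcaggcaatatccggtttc

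The stretches are at chr11:48871421-48871460 (minus strand), chr11:58214892-58214976, chr11:58199501-58199555, chr3:142620594-142620662, chr3:142559989-142560043, chr3:142496684-142496933 and chr3:142530220-142530335 (plus strand). An ISRE match was present in 7 of 7 members with a window, against 3.99% of the genes in the table and 3.44% of its 32851 windows. The match began 24 to 64 bases before the start in 6 of them and 165 bases before it in Gbp5. Gbp3 and Irgm1 each held a pair of overlapping ISRE matches, while the second window of Gbp3 held no match of either kind. A GAS match was found in 4 of 7 members, Gbp5, Gbp7, Irgm2 and Igtp, against 9.55% of all genes and 8.3% of all windows. In Irgm2 and Igtp the GAS match lay directly upstream of the ISRE match, at 75 and 64 bases before the start in Irgm2 and at 45 and 34 in Igtp. The first 55 bases shown for these 2 neighbouring genes were identical at 53 positions. The members without a GAS match in the window were Gbp2, Gbp3 and Irgm1. A match is a run of letters and not a measured binding site, and its absence says only that the letters are not in the window.

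**Figure D1:**
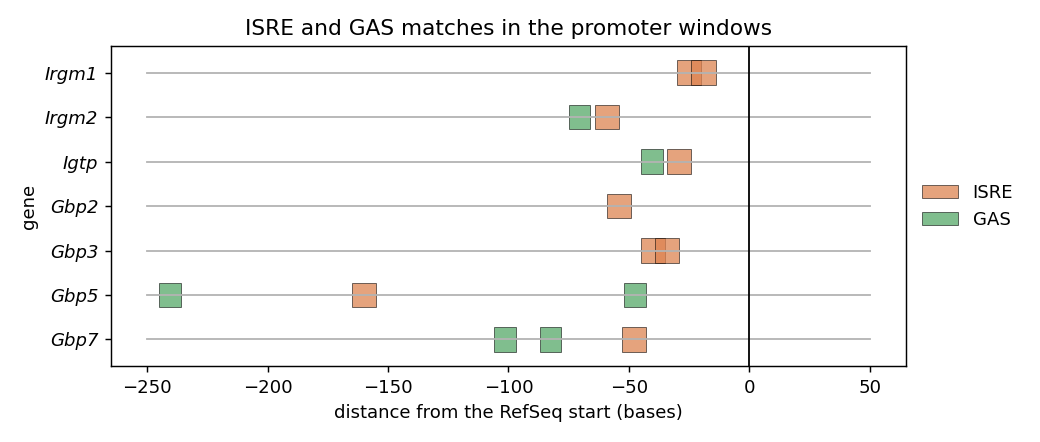
Positions of ISRE (orange) and GAS (green) matches in the promoter windows of the 7 members in the RefSeq table, with distance from the annotated start in bases on the x axis and the gene on the y axis; for Gbp3 the upstream window is drawn. ISRE matches lie within 64 bases of the start in every gene but Gbp5, and pairs of GAS matches are seen in Gbp5 and Gbp7.

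FPKM is corrected for transcript length, so levels can be compared between genes. In parental cells the order of mean levels was Irgm1, Igtp, Gbp3, Irgm2, Gbp2, Gbp7, Gbp9, Gbp6, Gbp4 and Gbp5, from 57.6 ± 4.73 FPKM (SD, n = 3) for Irgm1 down to 1.13 ± 0.180 FPKM for Gbp5. The replicate ranges of neighbours in this order overlapped between Igtp and Gbp3, between Gbp3 and Irgm2, and between Gbp2 and Gbp7. In M8 the order was Irgm1, Gbp3, Igtp, Irgm2, Gbp2, Gbp7, Gbp9, Gbp6, Gbp4 and Gbp5, and only the ranges of Gbp9 and Gbp6 overlapped. The range of Gbp3 thus overlapped those of Igtp and Irgm2 in parental cells and lay above both in M8. In each parental replicate Igtp was above Gbp3. Irgm1 made up 31.1% to 32.2% of the summed FPKM of the members in each of the 6 samples. Gbp3 made up 13.1% to 14.7% of that sum in the parental replicates and 18.9% to 19.1% in the M8 replicates.

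**Figure D2:**
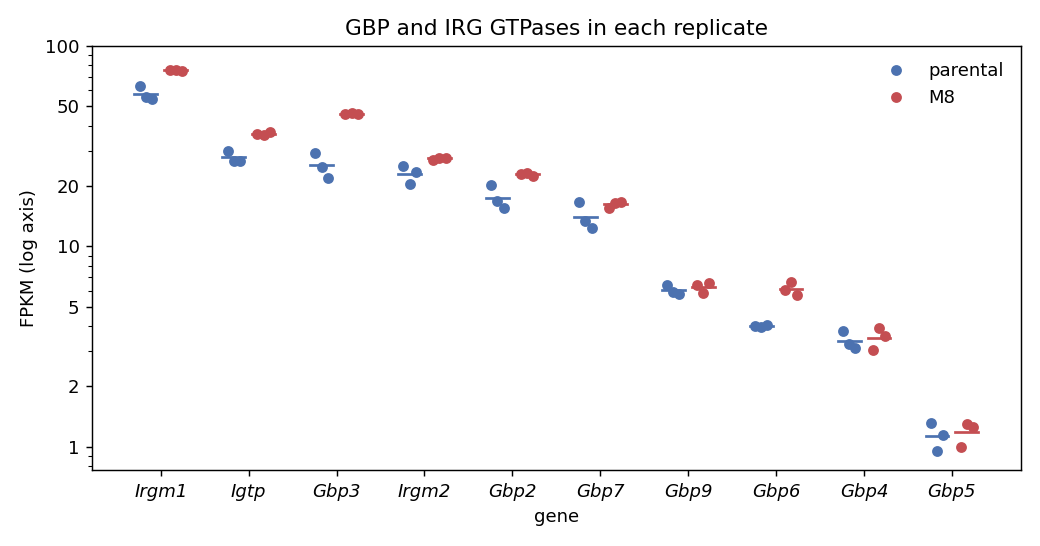
FPKM of the 10 members (log axis) in the 3 parental (blue) and 3 M8 (red) replicates, with points for single replicates and lines for means; genes on the x axis are ordered by parental mean. The M8 points lie above all parental points for Irgm1, Igtp, Gbp3, Irgm2, Gbp2 and Gbp6 and overlap them for Gbp7, Gbp9, Gbp4 and Gbp5.

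The 3 IRGM regulators were all higher in M8. Irgm1, which is found on Golgi and lysosomal membranes and without which mice lose resistance to several intracellular bacteria, was at 63.0, 55.4 and 54.3 FPKM in parental replicates 1 to 3 and at 75.8, 75.7 and 75.1 FPKM in M8. Its mean rose from 57.6 ± 4.73 to 75.5 ± 0.370 FPKM (SD, n = 3), a ratio of 1.31 and a log2 fold change of 0.39 ± 0.056 (standard error). The M8 replicates differed by less than 1 FPKM and the lowest of them was above the highest parental value. Igtp, a regulator on the endoplasmic reticulum, was at 30.0, 26.6 and 26.8 FPKM in parental cells and at 36.2, 36.1 and 37.2 FPKM in M8. Its ratio was also 1.31, with a log2 fold change of 0.38 ± 0.053. Irgm2, a Golgi regulator that restrains caspase-11 activation, was at 25.0, 20.5 and 23.6 FPKM in parental cells and at 27.1, 27.5 and 27.7 FPKM in M8. Here the ratio was 1.19 and the log2 fold change 0.25 ± 0.066, the smallest of the 3, although the ranges did not overlap. The ratio of Igtp to Irgm2 was 1.14 to 1.30 in parental cells and 1.31 to 1.34 in M8.

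The GBPs of chromosome 3 were spread over a wide range of differences. Deletion of this cluster makes mice susceptible to Toxoplasma gondii. Gbp3 was at 29.4, 25.0 and 22.0 FPKM in parental cells and at 45.6, 46.5 and 45.6 FPKM in M8. Its mean rose from 25.4 ± 3.71 to 45.9 ± 0.488 FPKM (SD, n = 3), a ratio of 1.80 and a log2 fold change of 0.84 ± 0.085, the largest among the members. Of the 10597 genes tested, 19 had a log2 fold change at least as high, Gbp3 included. Since Gbp3 was chosen with this contrast known, its rank is a description. Gbp2, a prenylated GBP recruited to the Toxoplasma vacuole, was at 20.2, 16.9 and 15.5 FPKM in parental cells and at 23.1, 23.4 and 22.4 FPKM in M8. The ranges did not overlap, with a ratio of 1.31 and a log2 fold change of 0.38 ± 0.082. Gbp7, which takes part in assembly of the phagocyte oxidase, was at 16.6, 13.4 and 12.3 FPKM in parental cells and at 15.5, 16.5 and 16.7 FPKM in M8. Parental replicate 1 lay within the M8 range, and the log2 fold change was 0.20 ± 0.092. Gbp5, a prenylated GBP known for its part in inflammasome responses, was the lowest member, at 1.31, 0.951 and 1.14 FPKM in parental cells and 0.998, 1.30 and 1.25 FPKM in M8. Its values overlapped, with a log2 fold change of 0.03 ± 0.115.

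Ratios within the cluster moved with Gbp3. Gbp3 was at 1.42 to 1.48 times the level of Gbp2 in the parental replicates and at 1.98 to 2.03 times in the M8 replicates. Against Gbp7, the adjacent gene, the ratio was 1.77 to 1.87 in parental cells and 2.73 to 2.94 in M8. Neither ratio overlapped between the lines. A ratio within a sample does not depend on the scaling between libraries, and it shows an unequal change without saying that either gene stayed the same.

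On chromosome 5, Gbp6 was apart from its neighbours. It was at 3.99, 3.98 and 4.04 FPKM in parental cells and at 6.02, 6.63 and 5.70 FPKM in M8, a ratio of 1.53 and a log2 fold change of 0.51 ± 0.071. The M8 values were all higher. Of the read-length sequences of its GENCODE transcripts, 64.4% also occurred in other genes, chiefly the overlapping model Gm43302 (58.9%) and Gbp10 (36.1%), so the level of Gbp6 depends on how such reads were assigned and is uncertain. Gbp4 was at 3.78, 3.26 and 3.10 FPKM in parental cells and at 3.04, 3.93 and 3.55 FPKM in M8, with a log2 fold change of 0.04 ± 0.098. Gbp9, another GBP recruited to the Toxoplasma vacuole, was at 6.43, 5.91 and 5.81 FPKM in parental cells and at 6.40, 5.86 and 6.56 FPKM in M8, with a log2 fold change of 0.05 ± 0.068. Both overlapped between the lines. The ratio of Gbp6 to Gbp4 was 1.05 to 1.30 in parental cells and 1.61 to 1.98 in M8.

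Outside Gbp6, reads shared with other genes were fewer. The shared portion of read-length sequences was 9.98% for Gbp7, nearly all with an overlapping model Gm43802, 5.06% for Igtp and 2.95% for Irgm2, which share with each other, and at most 1.61% for the other 6 members. No such sequence of Gbp2 or Irgm1 occurred elsewhere. Gbp4, Gbp6, Gbp7 and Gbp9 overlap another GENCODE gene on the same strand. In GENCODE, unlike in the RefSeq coordinates given above, the model of Irgm2 begins within Igtp and spans most of it. The reference genome is from the C57BL/6J strain and CT26 is from BALB/c, and the part of strain differences in these values was not tested.

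In the fit across genes with limma, 6 of the 10 members (Gbp2, Gbp3, Gbp6, Irgm1, Irgm2 and Igtp) were past the threshold of an adjusted p below 0.1 in the higher direction, against 21.2% of all 10597 genes tested. None was past it in the lower direction, against 16.5% of all genes. The same 6 members had all 3 M8 values above all 3 parental values, which held for 24.8% of all genes, and 0 had all M8 values below, which held for 20.4%. Since the members were selected on this contrast, nothing is read from these counts. Upper-quartile scaling moved the calls over all genes from 2250 higher and 1745 lower to 1470 higher and 2769 lower, and left the same count of 6 members higher. Under that scaling the small positive differences of Gbp4, Gbp5 and Gbp9 turned slightly negative. The median log2 fold change of the members was 0.31, against 0.01 over all genes tested, where the 5th and 95th percentiles were -0.32 and 0.31. In bulk RNA, a larger number of cells with a transcript and more of it per cell cannot be told apart.

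**Figure D3:**
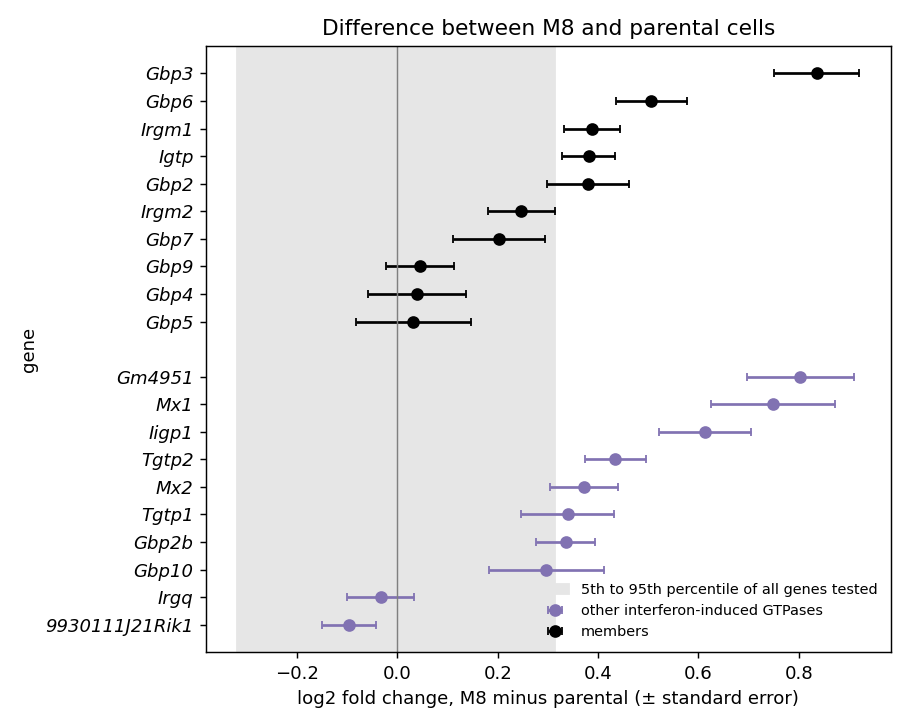
Log2 fold change between M8 and parental cells (x axis, points) with its standard error (bars) for the 10 members (black) and for 10 other interferon-induced GTPases that passed the filter (purple), with genes on the y axis; the grey band spans the 5th to 95th percentile of all genes tested. Gbp3, Gbp6, Irgm1, Igtp and Gbp2 lie to the right of the band, and Gbp4, Gbp5 and Gbp9 lie near 0.

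The parental replicates differed among themselves in a shared way. Parental replicate 1 had the highest parental value in 9 of the 10 members and the lowest in none, whereas it was highest in 33.3% of all genes tested and lowest in 36.9%. Gbp6 was the exception, with its highest parental value in replicate 3. The summed FPKM of the members was 199.7 in parental replicate 1, 171.9 in replicate 2 and 168.5 in replicate 3, against 239.8, 243.3 and 241.7 in the M8 replicates. The sums therefore did not overlap between the lines. The median coefficient of variation was 10.2% over the members in parental cells and 2.92% in M8, whereas over all genes tested it was 5.62% and 4.42%. The coefficient was larger in parental cells for 7 of the 10 members and for 59.7% of all genes. Without parental replicate 1 the median log2 fold change of the members was 0.38 and 7 were past the threshold, the added gene being Gbp7 at 0.32. Gbp7 was at 0.12 without parental replicate 3, against 0.20 with all samples. Without parental replicate 2, the setting that gave the lowest median of those that left out a replicate, it was 0.26 and 6 were past the threshold.

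**Figure D4:**
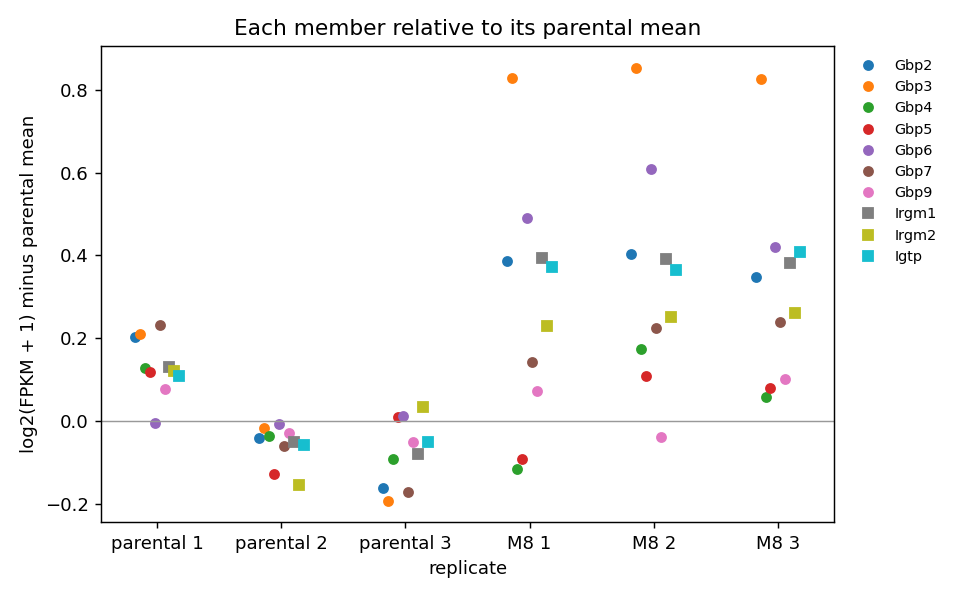
Log2(FPKM + 1) of each member minus its parental mean (y axis) in the 6 replicates (x axis), with circles for GBPs and squares for IRGM genes. Parental replicate 1 is above 0 for every member but Gbp6, and all M8 points of Gbp3 are above 0.8.

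Genes with the most similar pattern were sought among 8539 genes with a mean of at least 5 FPKM, as the root mean square distance over the 6 samples from the median member profile. The 5 nearest were Commd9 (distance 0.011 on the log2 scale), Slc25a44 (0.019), Wash1 (0.020), Bcl7b (0.026) and Flcn (0.029). Commd9, for example, was at 22.8, 19.9 and 19.8 FPKM in parental cells and at 25.4, 26.0 and 26.0 FPKM in M8. Among the parental samples Commd9 was highest in replicate 1, which follows from the way the genes were sought.

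Of 21 other genes of interferon-induced GTPase families, 10 had a mean of at least 1 FPKM. By limma, 8 of these were higher in M8 and 0 lower, against 21.2% and 16.5% of all genes tested. This list was also chosen with earlier results of these data known. Nothing is read from its counts, and the limma p-values of its genes are given as a description. Among the effector IRG genes, Iigp1, which coats and breaks pathogen vacuoles, was at 3.56, 3.75 and 2.79 FPKM in parental cells and at 5.56, 5.50 and 5.88 FPKM in M8 (log2 fold change 0.61 ± 0.093, limma adjusted p = 0.00195). Tgtp2 rose by 0.43 ± 0.061 (limma adjusted p = 0.00145) and the near-identical Tgtp1 by 0.34 ± 0.093 (limma adjusted p = 0.0238), though their reads may not be separable. The predicted gene Gm4951 rose from 2.23 ± 0.426 to 4.61 ± 0.331 FPKM (SD, n = 3), by 0.80 ± 0.106 (limma adjusted p = 0.00106). The Mx proteins are dynamin-like antiviral GTPases induced by type I and type III interferon. Mx1 was at 1.70, 1.03 and 1.25 FPKM in parental cells and at 3.03, 3.14 and 2.52 FPKM in M8 (0.75 ± 0.123, limma adjusted p = 0.00274), and Mx2 rose by 0.37 ± 0.067 (limma adjusted p = 0.00406).

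Among the remaining GBPs, Gbp2b, the mouse GBP1 in the chromosome 3 cluster, rose by 0.34 ± 0.059 (limma adjusted p = 0.00342). Gbp10, which shares transcript sequence with Gbp6, rose by 0.30 ± 0.114 (limma adjusted p = 0.0794), a call kept in 7 of the 17 alternatives that tested it and lost, at 0.19 to 0.34, on leaving out any replicate but parental replicate 1. The IRG-related genes Irgq and 9930111J21Rik1 did not pass, at -0.03 ± 0.066 (limma adjusted p = 0.740) and -0.10 ± 0.053 (limma adjusted p = 0.202). With upper-quartile scaling (-0.155) or without parental replicate 3 (-0.14), 9930111J21Rik1 passed as lower. The summed level of the 21 genes was 60.6 to 68.2 FPKM in parental cells and 79.5 to 80.9 FPKM in M8. Of the 9 of these genes with a RefSeq promoter window, 6 had an ISRE match and 4 a GAS match.

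A list of dynamin superfamily GTPases without known interferon induction served for comparison. Of 12 tested, 2 were higher (Ehd4 by 0.26 ± 0.045, limma adjusted p = 0.00330, and Ehd1 by 0.17 ± 0.042, limma adjusted p = 0.0143), both recycling endosome proteins. The call of Ehd1 was lost with quantile normalization (0.08). Dnm1l, the mitochondrial fission dynamin, was the 1 gene that fell, at -0.13 ± 0.040 (limma adjusted p = 0.0372), a call lost without M8 replicate 2 (-0.115), and 9 did not pass. The shares over all genes tested were 21.2% higher and 16.5% lower. The median log2 fold change of the list was 0.01, against 0.36 for the other interferon-induced GTPases. Both lists were chosen with earlier results of these data known, so the medians are a description only.

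Genes of interferon signaling were listed together for the interferon-gamma and the type I interferon receptors. Of 20 genes tested in a list of 23, 5 (25%) were higher in M8 and 4 (20%) lower, shares close to the 21.2% and 16.5% over all genes tested. The transcription factor Stat2 was at 35.5, 30.7 and 30.9 FPKM in parental cells and at 42.0, 40.5 and 39.3 FPKM in M8 (0.32 ± 0.060, limma adjusted p = 0.00488). Irf9, its partner at ISRE sequences, rose by 0.12 ± 0.039 (limma adjusted p = 0.0444), a call kept in 12 of 18 alternatives and lost without M8 replicate 2 (0.11) or 3 (0.12), and with TPM (0.09), upper-quartile scaling (0.06) or quantile normalization (0.05). Usp18, an interferon-induced protein that damps type I interferon receptor signaling, rose by 0.57 ± 0.045 (limma adjusted p = 0.000163). Stat3 and the tyrosine kinase Tyk2 fell, at -0.37 ± 0.051 (limma adjusted p = 0.00128) and -0.29 ± 0.067 (limma adjusted p = 0.0122).

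The interferon-gamma gene itself, Ifng, was listed at 0 in 5 samples and at 0.125 FPKM in parental replicate 2. The genes of its receptor did not pass the threshold, with Ifngr1 at -0.11 ± 0.058 (limma adjusted p = 0.168) and Ifngr2 at -0.02 ± 0.060 (limma adjusted p = 0.791). Ifngr1 passed as lower with upper-quartile scaling (-0.17) and was at -0.06 without M8 replicate 1. Irf1, an interferon-gamma-induced factor that binds ISRE sequences, was at 26.6, 26.5 and 30.4 FPKM in parental cells and at 24.6, 29.0 and 27.5 FPKM in M8 (-0.04 ± 0.072, limma adjusted p = 0.704). Nlrc5, the activator of MHC class I genes, was at -0.07 ± 0.077 (limma adjusted p = 0.515), and B2m, the light chain of MHC class I and MR1, at -0.06 ± 0.039 (limma adjusted p = 0.316). B2m passed as lower with TPM (-0.09) and with upper-quartile scaling (-0.12). All 3 M8 values of Stat2 lay above all 3 parental values, as in 24.8% of all genes tested, and those of Irf1 overlapped. The part of either factor in the values of the GTPases was not tested.

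Of 10 inflammasome and pyroptosis genes tested, 3 were higher in M8 and 3 lower, against 21.2% and 16.5% of all genes tested. GBPs are known to act upstream of some of these proteins. Zbp1, an interferon-induced sensor of Z-form nucleic acid, was at 54.1, 46.0 and 51.7 FPKM in parental cells and at 93.9, 90.7 and 87.0 FPKM in M8 (0.83 ± 0.060, limma adjusted p = 0.000132), close in size to Gbp3. Gsdmd, the pore-forming gasdermin, rose by 0.33 ± 0.063 (limma adjusted p = 0.00558) and Casp1 by 0.27 ± 0.084 (limma adjusted p = 0.0384). The call of Casp1 was lost without M8 replicate 1 (0.24) and with no filter on low values (0.27). Casp4, the mouse caspase-11 that senses lipopolysaccharide, was lower in M8, at -0.46 ± 0.111 (limma adjusted p = 0.0150), as was the NLR sensor Naip2 at -0.35 ± 0.061 (limma adjusted p = 0.00334). Aim2, the DNA sensor that GBPs help to reach its ligand, was at 0.09 ± 0.065 (limma adjusted p = 0.334).

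A further list of partners holds enzymes that attach lipid anchors to prenylated proteins, autophagy proteins including those of the ATG8 family, the ubiquitin ligases Traf6 and Trim21, and the kinase Pim1. Of 22 tested, 2 were higher and 5 lower, against 21.2% and 16.5% of all genes tested, and 15 did not pass. The higher genes, named after their values were seen, were Trim21 by 0.21 ± 0.074 (limma adjusted p = 0.0603) and the autophagy enzyme Atg3 by 0.17 ± 0.048 (limma adjusted p = 0.0298). The call of Trim21 was kept in 9 of 18 alternatives and lost, at 0.16 to 0.21, without parental replicate 2 or 3 or M8 replicate 1 or 2, and that of Atg3 was lost with upper-quartile scaling (0.11). Pim1 fell, at -0.40 ± 0.080 (limma adjusted p = 0.00638), and so did the autophagy kinase Ulk1, at -0.25 ± 0.062 (limma adjusted p = 0.0167). The ATG8 gene Gabarapl1, also named after its values were seen, fell, at -0.21 ± 0.049 (limma adjusted p = 0.0140). The autophagy enzyme Atg10 was at -0.28 ± 0.099 (limma adjusted p = 0.0578) and the ATG8 protein Map1lc3a at -0.28 ± 0.109 (limma adjusted p = 0.0837). Their calls were kept in 9 of 17 and 9 of 18 alternatives and lost without parental replicate 2 or 3 or M8 replicate 1 or 3, where Atg10 was at -0.28 to -0.22 and Map1lc3a at -0.31 to -0.17. Gabarapl2, the ATG8 protein that works with Irgm2, was at -0.09 ± 0.067 (limma adjusted p = 0.344) and passed as lower with quantile normalization (-0.18).

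**Figure D5:**
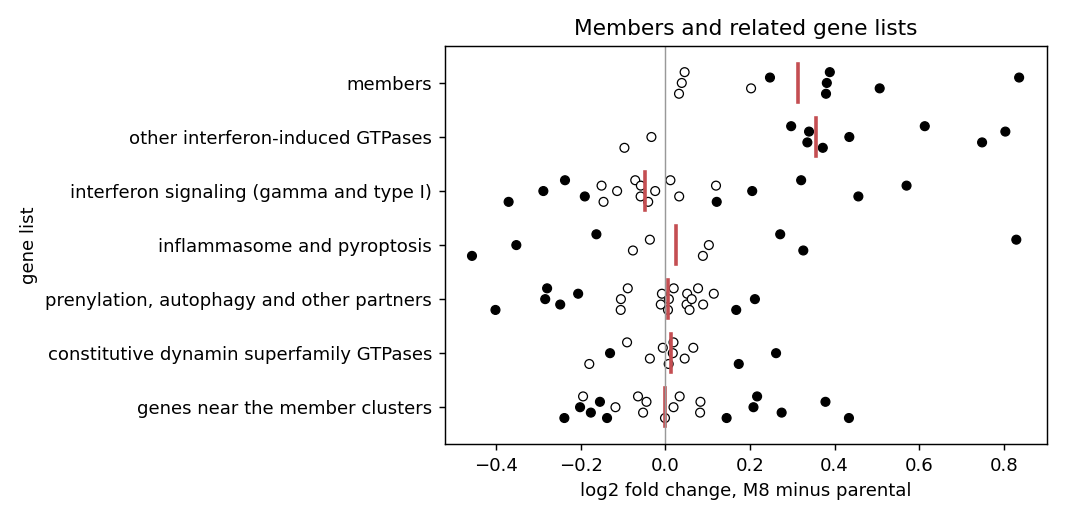
Log2 fold change between M8 and parental cells (x axis) of the members and of each gene tested in 6 other lists (y axis), with filled points for genes past the adjusted p threshold, open points for the others and red bars for list medians. The members and the other interferon-induced GTPases have their medians above 0.3, and the medians of the other lists lie near 0. The members and gene lists were chosen with earlier results of these data known.

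Genes that lie within 500 kb of a member but belong to neither list of GTPases were examined as neighbours. Of 64 such protein-coding genes in RefSeq, 57 were in the tables and 21 had a mean of at least 1 FPKM, and 6 (28.6%) were higher and 5 (23.8%) lower, against 21.2% and 16.5% of all genes tested. Ifi47, an effector IRG gene that this list caught by position, was at 20.3, 18.7 and 16.4 FPKM in parental cells and at 24.4, 23.4 and 24.8 FPKM in M8 (0.38 ± 0.071, limma adjusted p = 0.00490), a ratio of 1.31. The other 5 that rose were Galnt10 by 0.43 ± 0.082 (limma adjusted p = 0.00497), Gemin5 by 0.27 ± 0.052, Sap30l by 0.22 ± 0.080, Larp1 by 0.21 ± 0.041 and Sh3bp5l by 0.14 ± 0.055. Those that fell were Zfp62 (-0.24 ± 0.063), Zfp672 (-0.20 ± 0.074), Gnb2l1 (-0.18 ± 0.040), Lrrc8d (-0.15 ± 0.060) and Gtf2b (-0.14 ± 0.039). Over these 21 genes the median was 0.00 on the log2 scale. The calls of Sap30l and Sh3bp5l were each kept in 9 of 18 alternatives, that of Zfp672 in 9 of 17 and that of Lrrc8d in 10 of 18. Sap30l was at 0.14 to 0.24 where its call was lost on leaving out a replicate (parental 1, M8 1 or M8 2), and Zfp672 at -0.19 to -0.17 (parental 1 or 2, M8 1 or 3). Sh3bp5l was at 0.12 to 0.15 and Lrrc8d at -0.14 to -0.13 without parental replicate 2 or 3 or M8 replicate 1 or 3, where their calls were lost.

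Depth differed between the lines. From the steps of weakly expressed genes, whose values are whole multiples of the worth of 1 read, the relative depth was 0.948 to 1.072 in the parental replicates and 0.772 to 0.875 in M8. In 381 genes with a single transcript this came to an estimated 21.5 to 24.3 M mapped reads in parental cells and 17.5 to 19.9 M in M8. On these estimates, Gbp5 rested on 61 to 91 reads per sample, Gbp6 on 223 to 311 and Gbp4 on 274 to 390, whereas Irgm1 rested on 2694 to 3399. Gbp5 and Gbp4 had the largest standard errors among the members, at 0.115 and 0.098 on the log2 scale, and Gbp7, which rested on 1615 to 2114 reads, had 0.092.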

How the data were processed

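RNA sequencing libraries of 3 parental and 3 M8 samples were made by the authors with a stranded mRNA kit and sequenced from 1 end. The deposited FPKM values came from Cufflinks after the authors' alignment to mm10 by TopHat. The submitters' processing notes list TopHat2 2.1.1, Bowtie2 2.2.8, SAMtools 0.1.18 and Cuffdiff 2.2.1, and the gene annotation is not given in the sources used here. FPKM divides the fragments of a gene by its length and by the mapped fragments of the library, so it holds no read counts and a few very abundant genes can shift all others. The study's own test used read counts, so it was not repeated.

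Differences were fitted with limma 3.58.1 in R 4.3.3 (lmFit, eBayes with trend) on log2(FPKM + 1) with no covariate. The 10597 genes whose mean over the 6 samples reached 1 FPKM were tested. P-values were adjusted over all these genes by the Benjamini-Hochberg method, with a threshold of 0.1. Because of the added 1, log2 fold changes of low genes come out too small. An exact permutation test of 3 against 3 samples cannot go below p = 0.1 and was not used. The fit was tested on simulated data. Python 3.11.15 with pandas 2.3.3 and matplotlib 3.10.9 served for tables and plots.

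The members and gene lists were chosen with earlier results of these data known. Genes named are the members, the other interferon-induced GTPases with a mean FPKM of at least 1, up to 4 genes past the threshold in each other list, a few genes chosen by name, the 5 nearest profiles, every neighbouring gene past the threshold, and Mr1 and B2m. Not every gene that this rule covers is named. The tissue marker genes and the partners named after their values were seen are outside it. Transcript sequences were from GENCODE and promoters from RefSeq, both of GRCm38. Protein sequences were not analysed here, and 1 gene of the interferon signaling list is counted but not reported on its own. The 18 alternatives were other pseudocounts, filters, scalings, thresholds and variance models, a block for the replicate number, and the omission of single replicates.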

Additional observations from a re-analysis of the deposited data

How the results depend on the processing

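A required fold change of at least 1.5, applied on the log2(FPKM + 1) scale, left 1 member higher in M8. Gbp6, whose ratio of FPKM means was 1.53, stayed under it on that scale (log2 fold change 0.51). Leaving out each replicate gave 6 to 7 members higher, 0 lower and a median log2 fold change of 0.262 to 0.377. With the 1.5-fold requirement, the counts higher and lower in M8 were 3 higher among other interferon-induced GTPases, 0 and 0 among constitutive dynamin superfamily GTPases, 0 and 0 in interferon signaling, 0 and 0 among prenylation and ATG8 partners, 1 and 0 among inflammasome genes, 0 and 0 among neighbouring genes, and 42 and 74 over all genes, since fewer genes reach that size. Upper-quartile scaling gave 1470 higher and 2769 lower over all genes, 8 lower in interferon signaling, 0 higher among prenylation and ATG8 partners, 1 lower among other interferon-induced GTPases and 2 lower among dynamin superfamily GTPases. Quantile normalization gave 1 higher and 2 lower among dynamin superfamily GTPases and 3 lower among neighbouring genes, and TPM gave 2 lower among the dynamin superfamily and 1 higher among prenylation and ATG8 partners. Without a filter, 1 of the other GTPases was lower, 1 prenylation and ATG8 partner was higher and 3 lower, and 3 neighbouring genes were lower. An adjusted p below 0.05 gave the same counts for the last 2 lists. A mean of at least 5 FPKM left 3 other GTPases higher, as fewer genes were tested. Leaving out each replicate gave 0 to 1 other GTPases lower, 0 to 2 dynamin superfamily GTPases lower, 2 to 5 interferon signaling genes lower, 1 to 2 prenylation and ATG8 partners higher and 3 to 5 lower, 3 to 5 neighbouring genes lower, and 1157 (without M8 replicate 1) to 1672 genes lower over all. The sign turned in some settings for genes that were not past the threshold. With each replicate left out, log2 fold changes ran from -0.0908 to 0.0231 for Irf1 (0.0227 without parental replicate 3 and the highest without M8 replicate 1), -0.0585 to 0.0363 for Ifngr2, -0.0617 to 0.00392 for Mr1 and -0.0761 to 0.0115 for Irgq, which was at 0.0216 with quantile normalization. The members Gbp4 and Gbp5 ran from -0.0287 to 0.116 and from -0.0311 to 0.0941 in the same way. The cause of these shifts was not tested. With 250 bases before the start, 2.98% of windows held the ISRE core and 7.02% the GAS core, since the windows were shorter.

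Samples of the 2 lines with the same replicate number did not deviate together, with correlations of 0.1, -0.106 and -0.033 across genes, so the numbers were not taken as pairs. With the replicate block, 2171 genes were higher and 1688 lower over all, and 6 members were higher.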
